A study of Mus musculus with 17 samples.

Results

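Passage from G1 into DNA replication was followed here through 10 genes: the D-type cyclins Ccnd1, Ccnd2 and Ccnd3, cyclin E1 (Ccne1), the kinases Cdk4 and Cdk6, the inhibitors Cdkn1b, Cdkn2c and Cdkn2d, and the retinoblastoma gene Rb1. A probe set counted as a member when the platform annotation gave it exactly 1 of these symbols, and the probe set of highest mean over the 17 arrays stood for the gene. All 10 genes were found, with 24 probe sets among them, out of 17097 genes in the whole table. All 10 were also among the 11625 genes tested, those whose highest group mean lay above the median of all values, 3.83.

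The arrays hold 5 groups of C57/Bl6 wildtype mouse cells. Leukemias in recipient spleens were made from the donors' thymic DN2 stage, an early T-cell progenitor (5 arrays), from marrow LSK cells, which include the blood stem cells (3 arrays), or from marrow granulocyte-macrophage progenitors (GMP, 5 arrays), all labelled as transformed with Myc and Bcl2. Recipients were 4 to 8 weeks old and irradiated with 4.5 to 6 Gy, and by the labels the sort took spleen cells with CD11b and Gr1 and without CD3, CD4 or CD8, a myeloid gate. The references are untransformed thymic DN2 cells (2 arrays) and marrow GMP (2 arrays). No healthy LSK array was analysed here. The sources used here do not give the donors' ages, the vector or whether replicates are separate mice, so p-values measure only the spread between these arrays.

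D-type cyclins bind and activate Cdk4 and Cdk6, which begin to phosphorylate the retinoblastoma protein and so free E2F transcription factors to switch on genes of DNA replication. Cyclin E1 with Cdk2 completes that step. Proteins of the INK4 class, such as p18 (Cdkn2c) and p19 (Cdkn2d), bind Cdk4 and Cdk6 and block them, while p27 (Cdkn1b) inhibits cyclin-Cdk2 complexes. In blood cells cyclin D2, cyclin D3 and Cdk6 are the forms most often described, and Myc is known to act on several of these genes.

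Some arrays stood apart. In the DN2-labelled leukemias Cd3e, a chain of the CD3 complex by which the sort excluded cells, was 7.79 to 9.06, against 5.00 to 5.34 in the other leukemias, and Itgam, which encodes CD11b, was 7.17 and 7.38 in arrays 1 and 3 but 3.24 to 3.47 in arrays 2, 4 and 5. Cd4 and Cd8a, whose products the sort also excluded, lay near background in the DN2-labelled arrays, at 3.45 to 3.63 and 3.59 to 4.38. Cd3d was 12.17 to 12.55 there. It was 6.95 to 8.53 in the GMP-labelled and 5.22 to 7.28 in the LSK-labelled leukemias, against 5.13 to 5.41 in healthy DN2. The 6 T-cell markers averaged were Cd3e, Cd3d, Cd3g, Cd28, Cd4 and Cd8a, 2 of them at or under the median of all values. Their mean was 8.24 to 8.65 in the DN2-labelled, 4.18 to 4.70 in the LSK-labelled and 4.28 to 4.55 in the GMP-labelled leukemias, against 5.87 to 5.94 in healthy DN2 and 3.82 to 3.90 in healthy GMP. That of 4 neutrophil markers was 3.70 to 4.91, 12.60 to 13.98 and 13.44 to 13.83 in the same leukemias, against 3.65 to 3.96 in healthy DN2 and 6.87 to 7.17 in healthy GMP. That of 4 NK-cell markers (Klrd1, Eomes, Ncr1 and Gzma) was 8.59 to 11.37 in the DN2-labelled, 6.15 to 7.88 in the LSK-labelled and 3.00 to 3.44 in the GMP-labelled leukemias, against 5.04 to 5.11 in healthy DN2 and 3.07 to 3.23 in healthy GMP. Directions for the DN2-labelled group are therefore for arrays with that label, and the part of cell type in them was not tested. Mycn was 11.58 to 12.10 in the DN2-labelled and 12.06 to 13.15 in the GMP-labelled leukemias, against 3.96 to 4.58 in the healthy arrays. LSK-labelled array 1 had 12.82, while arrays 2 and 3 had 4.91 and 4.22, near the healthy level. Bcl2, at its brightest probe set, was 9.25 to 9.94 in the DN2-labelled and 10.08 to 11.53 in the GMP-labelled leukemias, against 5.89 to 6.99 in the healthy arrays. It was 11.30 in LSK-labelled array 1 but 6.75 and 5.27 in arrays 2 and 3, no higher than in healthy cells, which goes against their label. Myc itself was 5.48 to 6.49 in all 13 leukemias, against 10.10 to 10.65 in the healthy cells.

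Values are log2 expression per probe set, differences are log2 differences with the standard error (SE) of limma, and a difference was called at an adjusted p under 0.05 over all genes tested. A level near 3.83 is background, so differences against it are compressed. In bulk RNA, fewer cells of a type and less RNA per cell cannot be told apart.

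Ccnd2, the gene of cyclin D2, was higher in the DN2-labelled than in the other leukemias. It averaged 10.81 in the DN2-labelled leukemias, against 10.65 in healthy DN2, and 6.63 in the GMP-labelled leukemias, against 10.58 in healthy GMP. The values were 10.89, 10.71, 11.28, 10.98 and 10.21 in the DN2-labelled arrays, 7.29, 8.53 and 7.33 in LSK-labelled ones and 3.71, 8.95, 5.76, 8.94 and 5.80 in the GMP-labelled arrays. Healthy DN2 had 10.53 and 10.78, and healthy GMP had 10.50 and 10.66. The DN2-labelled and healthy arrays thus shared a narrow band above every LSK-labelled and GMP-labelled array, and GMP-labelled array 1 lay at background.

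Ccnd2 rose by 4.18 ± 0.79 in the DN2-labelled over the GMP-labelled leukemias (SE, limma, n = 5 and 5, adjusted p = 6.27e-04), without overlap. It rose by 3.09 ± 0.91 over the LSK-labelled leukemias (n = 5 and 3, adjusted p = 0.0119), also without overlap. Against healthy GMP it fell by 3.95 ± 1.04 in the GMP-labelled leukemias (n = 5 and 2, adjusted p = 0.0155). The difference of 0.16 ± 1.04 between DN2-labelled leukemias and healthy DN2 was not called (adjusted p = 0.947), with a 95% interval from −2.07 to 2.39 that leaves room for a change in either direction. The leukemia change in DN2 minus that in GMP was 4.11 ± 1.47, which did not pass (adjusted p = 0.0867). Without GMP-labelled array 2 or array 4 it was 4.69 (adjusted p = 0.0288) and 4.68 (adjusted p = 0.0276). The fall against healthy GMP was −4.03 without healthy GMP array 1 (adjusted p = 0.105) and −3.87 without array 2 (adjusted p = 0.126). With only those 2 groups in the fit it was −3.95 ± 1.41 and not called (adjusted p = 0.101).

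All 6 Ccnd2 probe sets had their highest leukemia mean in the DN2-labelled arrays. In 5 of them it was 7.71 to 10.81, against 4.29 to 6.63 in the GMP-labelled arrays, and the remaining one was dim, with means of 4.85 in the DN2-labelled, 2.90 in the LSK-labelled and 3.23 in the GMP-labelled arrays. Every Ccnd2 probe set kept the 3 calls of the main one.

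Ccnd3 ran opposite to Ccnd2 at its brighter probe set. It was 8.83, 8.27, 8.90, 8.99 and 8.91 in the DN2-labelled arrays, 9.91, 10.48 and 10.75 in LSK-labelled ones and 10.38, 9.13, 10.88, 9.35 and 10.95 in the GMP-labelled arrays. Healthy DN2 had 9.95 and 9.89 and healthy GMP had 8.77 and 9.01. Every DN2-labelled array lay under every other leukemia and under both healthy DN2 arrays.

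At that probe set Ccnd3 fell by 1.36 ± 0.33 in the DN2-labelled against the GMP-labelled leukemias (adjusted p = 0.00394) and by 1.60 ± 0.38 against the LSK-labelled leukemias (adjusted p = 0.00296). The differences from the healthy cells were −1.14 ± 0.43 for DN2 (adjusted p = 0.0713) and 1.25 ± 0.43 for GMP (adjusted p = 0.0531), neither called. The GMP one was called without GMP-labelled array 2 (1.50, adjusted p = 0.0124) or array 4 (1.45, adjusted p = 0.0188). The difference between these leukemia changes was −2.39 ± 0.61 (adjusted p = 0.0178), the only call among the 10 genes in that comparison, in which 12.7% of all genes tested were called, 6.39% higher and 6.28% lower. Without any single healthy array it was −2.27 to −2.51 and no longer called (adjusted p = 0.06 to 0.0837).

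The other Ccnd3 probe set gave another order, so the direction for this gene depends on which is read. There the DN2-labelled arrays had 8.00, 7.74, 7.88, 8.55 and 8.55, and the LSK-labelled arrays 6.98, 5.77 and 6.63. The GMP-labelled arrays had 8.87, 6.46, 7.10, 4.75 and 7.39, healthy DN2 6.23 and 5.78 and healthy GMP 4.86 and 4.57. At this probe set the DN2-labelled arrays lay above the LSK-labelled and healthy DN2 arrays, and the GMP-labelled arrays spread across the whole range. Ccnd3 then rose by 1.68 ± 0.63 in the DN2-labelled over the LSK-labelled leukemias (adjusted p = 0.0384) and by 2.14 ± 0.72 over healthy DN2 (adjusted p = 0.0438). Its rise over healthy GMP in the GMP-labelled leukemias was 2.20 ± 0.72 (adjusted p = 0.0421). The 1.23 ± 0.54 between DN2-labelled and GMP-labelled leukemias was not called (adjusted p = 0.0878), and the difference between the leukemia changes was −0.06 ± 1.02 (adjusted p = 0.977). With both probe sets averaged, Ccnd3 differed by −0.06 ± 0.38 between DN2-labelled and GMP-labelled leukemias (adjusted p = 0.917). RefSeq lists 2 start sites for Ccnd3, and which transcripts either probe set reads was not analysed here.

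**Figure D1:**
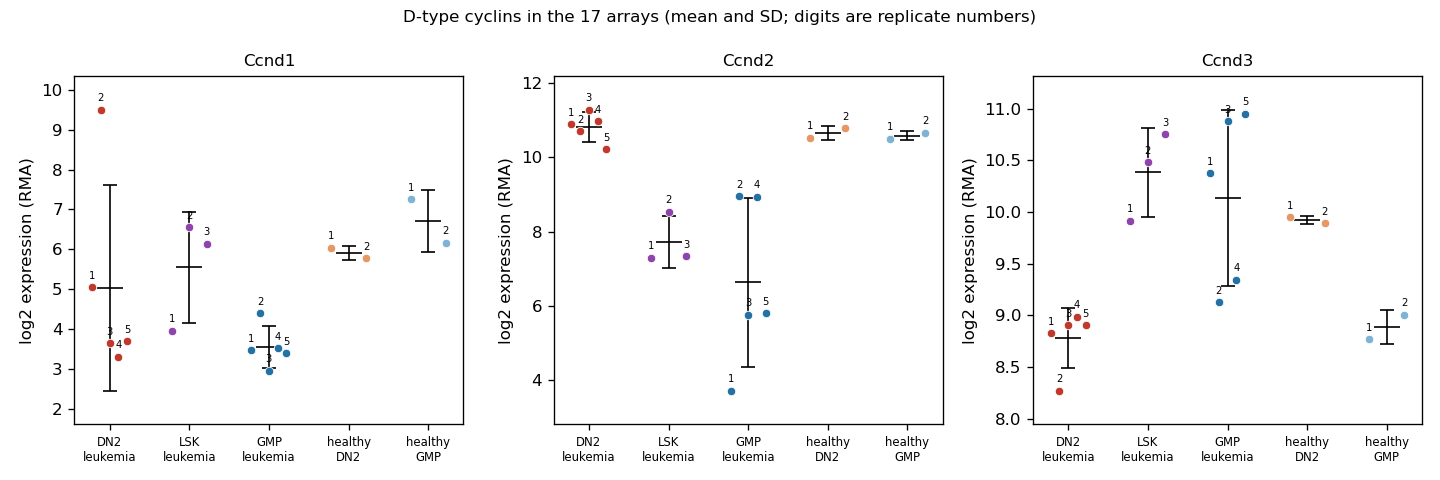
Log2 expression of Ccnd1, Ccnd2 and Ccnd3 (main probe set of each, 1 panel per gene) in the 5 groups, with points for arrays, digits for replicate numbers, and the group mean with its SD. Ccnd2 lies at 10.21 to 11.28 in the DN2-labelled leukemias and down to 3.71 in the GMP-labelled ones, and Ccnd1 reaches 9.50 in DN2-labelled array 2.

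**Figure D2:**
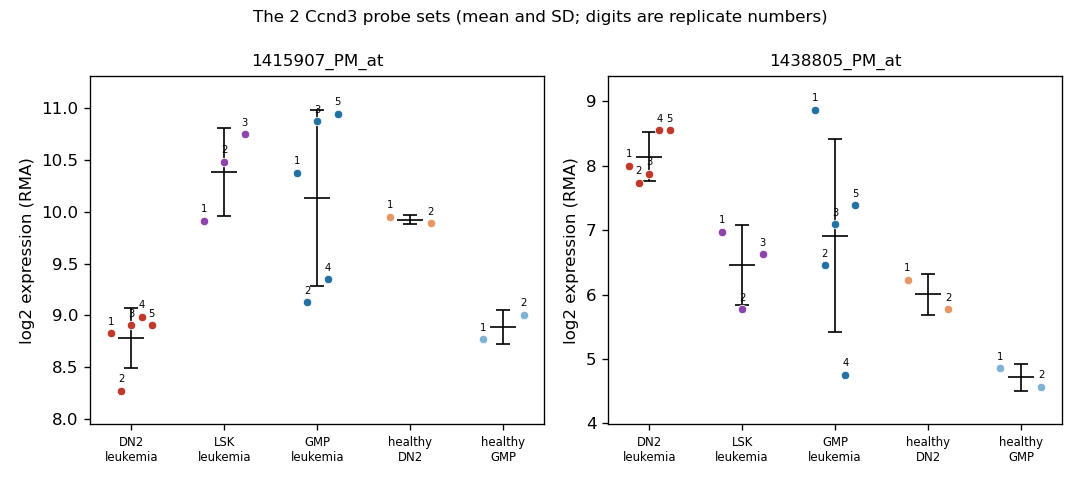
Log2 expression at the 2 Ccnd3 probe sets in the 5 groups, with points for arrays, digits for replicate numbers, and the group mean with its SD. The DN2-labelled leukemias are lowest among the leukemias at the brighter probe set (mean 8.78) and highest at the other (mean 8.14).

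Ccnd1 was high in a single leukemia. It was 5.05, 9.50, 3.63, 3.30 and 3.69 in the DN2-labelled arrays, 3.95, 6.55 and 6.14 in LSK-labelled ones and 3.47, 4.39, 2.95, 3.51 and 3.39 in the GMP-labelled arrays. Healthy DN2 had 6.04 and 5.78 and healthy GMP had 7.25 and 6.16. Most DN2-labelled and GMP-labelled arrays and LSK-labelled array 1 lay near background, under the healthy arrays, and DN2-labelled array 2 exceeded every other array. Its 2 other probe sets showed the same array at 6.08 and 8.95, against 3.33 to 4.51 in the other DN2-labelled arrays.

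No Ccnd1 difference was called. The GMP-labelled leukemias differed from healthy GMP by −3.16 ± 1.25 (adjusted p = 0.086), without overlap, and the DN2-labelled leukemias from healthy DN2 by −0.87 ± 1.25 (adjusted p = 0.694). Without DN2-labelled array 2 the difference from healthy DN2 was −1.99 and called (adjusted p = 0.0444), and so was the difference of −1.63 from the LSK-labelled leukemias (adjusted p = 0.0344).

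At their main probe sets Cdk4 and Cdk6 lay lower in every leukemia array than in any healthy array, and lowest in the LSK-labelled arrays. Cdk6 was 9.11, 9.18, 9.50, 9.58 and 9.10 in the DN2-labelled arrays, 8.74, 7.52 and 7.83 in LSK-labelled ones and 9.62, 10.77, 9.10, 10.51 and 9.42 in the GMP-labelled arrays. Healthy DN2 had 12.42 and 12.31 and healthy GMP had 11.80 and 11.58. All 13 leukemias lay under all 4 healthy arrays.

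Cdk6 fell by 3.07 ± 0.40 in the DN2-labelled leukemias against healthy DN2 (adjusted p = 5.46e-05), about 8.40-fold, while GMP-labelled leukemias were lower than healthy GMP, with a fall by 1.81 ± 0.40 (adjusted p = 0.00585), about 3.50-fold. The difference between these changes, −1.27 ± 0.57, was not called (adjusted p = 0.177). Among the leukemias Cdk6 rose by 1.27 ± 0.35 in the DN2-labelled over the LSK-labelled arrays (adjusted p = 0.00843) and fell by 1.86 ± 0.35 in the LSK-labelled against the GMP-labelled arrays (adjusted p = 0.00158). The DN2-labelled and GMP-labelled leukemias differed by −0.59 ± 0.30 (adjusted p = 0.142). The fall against healthy GMP was −1.69 without healthy GMP array 1 (adjusted p = 0.0787), and the rise over the LSK-labelled arrays was 1.01 without LSK-labelled array 2 (adjusted p = 0.0552). The other 2 Cdk6 probe sets also fell against both healthy groups, but 1 of them gave 0.98 ± 0.41 in the DN2-labelled over the LSK-labelled arrays (adjusted p = 0.062). In that one LSK-labelled array 1, at 9.15, lay above GMP-labelled arrays 3 and 5, at 8.95 and 9.05. At the dimmest, with leukemia means of 3.83 to 4.65, neither call involving the LSK-labelled arrays passed (adjusted p = 0.545 for DN2-labelled over LSK-labelled and 0.128 for LSK-labelled against GMP-labelled). There GMP-labelled array 2, at 5.80, lay above healthy GMP array 2, at 5.40.

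Cdk4 was 9.97, 9.87, 10.44, 10.08 and 9.22 in the DN2-labelled arrays, 8.98, 7.84 and 8.17 in LSK-labelled ones and 9.40, 10.31, 9.73, 10.58 and 9.81 in the GMP-labelled arrays. Healthy DN2 had 11.05 and 11.10 and healthy GMP had 10.84 and 11.00. Again no leukemia reached a healthy array, and the LSK-labelled arrays lay under all the others.

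Cdk4 fell by 1.16 ± 0.35 in the DN2-labelled leukemias against healthy DN2 (adjusted p = 0.0278), while the −0.95 ± 0.35 between GMP-labelled leukemias and healthy GMP was not called (adjusted p = 0.0686). The difference between these changes was −0.20 ± 0.50 (adjusted p = 0.841). Cdk4 rose by 1.59 ± 0.31 in the DN2-labelled over the LSK-labelled leukemias (adjusted p = 7.77e-04) and fell by 1.64 ± 0.31 in the LSK-labelled against the GMP-labelled leukemias (adjusted p = 0.00156). DN2-labelled and GMP-labelled leukemias differed by −0.05 ± 0.27, with a 95% interval from −0.63 to 0.52 (adjusted p = 0.905). The fall against healthy DN2 was −1.19 and −1.13 without healthy DN2 array 1 and array 2 (adjusted p = 0.148 and 0.172), and the GMP difference was −1.11 and called without GMP-labelled array 4 (adjusted p = 0.0272). The main probe set is of the class whose probes can match other transcripts, and the other 2 Cdk4 probe sets kept every direction and call.

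Both kinase genes carry the Myc-binding letters CACGTG (the E-box, which reads the same on both strands) ahead of their start sites. The 250 bases before the start site are shown for these 2 genes, whose windows held these letters. Binding of Myc proteins there in these cells, and its part in the kinase levels, was not tested. Sequences are RefSeq's, build GRCm38.p6, plus strand, 5′ to 3′, with each E-box in capitals, for Cdk4 at chr10:127063285-127063534 and for Cdk6 at chr5:3343643-3343892.
Cdk4: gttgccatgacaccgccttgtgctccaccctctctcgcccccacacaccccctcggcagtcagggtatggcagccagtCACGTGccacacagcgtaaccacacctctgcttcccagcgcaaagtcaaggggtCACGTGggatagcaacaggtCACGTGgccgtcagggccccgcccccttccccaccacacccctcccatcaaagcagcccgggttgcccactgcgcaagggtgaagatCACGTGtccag
Cdk6: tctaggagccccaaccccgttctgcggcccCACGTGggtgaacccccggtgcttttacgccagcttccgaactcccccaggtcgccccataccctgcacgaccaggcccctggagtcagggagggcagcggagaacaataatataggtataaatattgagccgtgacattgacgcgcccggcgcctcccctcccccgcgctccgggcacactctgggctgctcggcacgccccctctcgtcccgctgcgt
The Cdk4 window holds 4 E-boxes, starting 172, 118, 98 and 11 bases before the start site, and the Cdk6 window holds 1, starting 220 bases before it. That Cdk6 start site lies inside the gene's listed span, chr5:3341004-3531008. Of 32851 windows of this length in the table, 6.02% hold an E-box and 7 windows hold 4 or more. The table has windows for 7 of the 10 genes, and the windows of Ccnd3, Ccne1, Cdkn1b, Cdkn2c and Cdkn2d hold none of these letters. The 4 E2F words, TTTCCCGC, TTTGGCGC, TTTCGCGC and TTTGCCGC, searched on both strands with no overlap with an E-box, were in none of the 9 windows of these genes and in 1.86% of all windows. A match describes letters only.

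**Figure D3:**
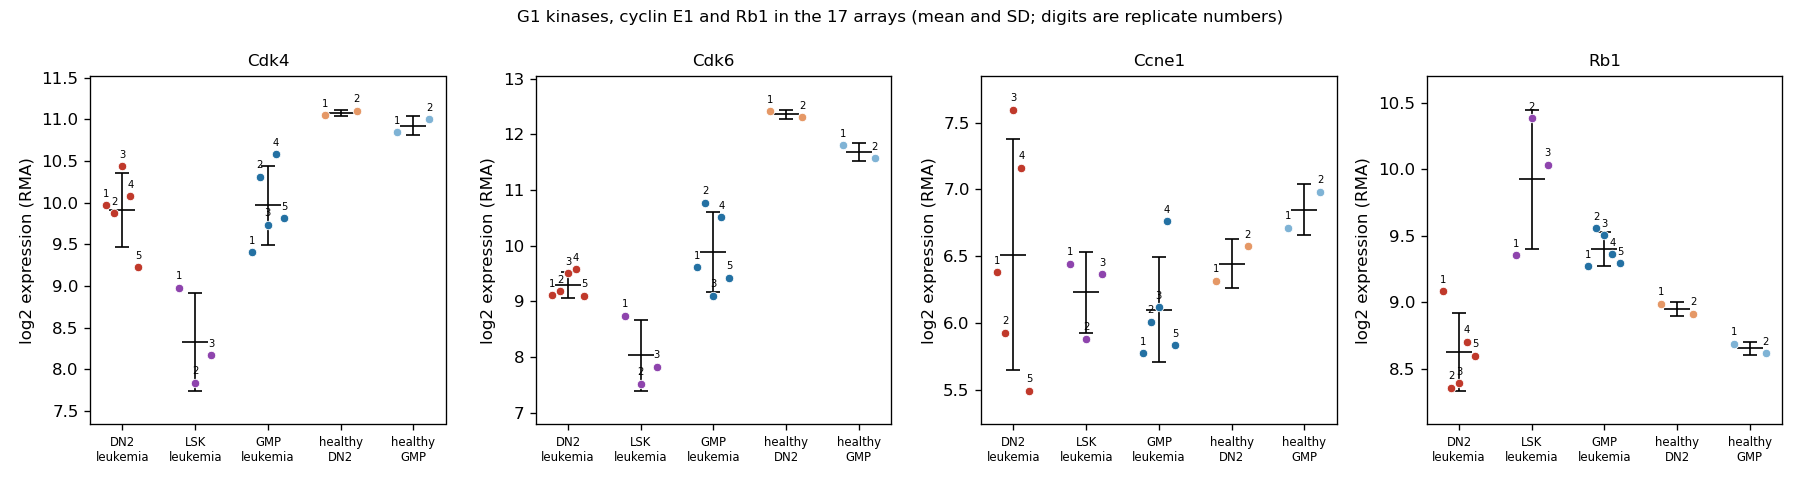
Log2 expression of Cdk4, Cdk6, Ccne1 and Rb1 (main probe set of each, 1 panel per gene) in the 5 groups, with points for arrays, digits for replicate numbers, and the group mean with its SD. No leukemia reaches a healthy array for Cdk4 or Cdk6, and Rb1 is 8.36 to 9.08 in the DN2-labelled leukemias against 9.27 to 10.38 in the other leukemias.

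Ccne1, whose product activates Cdk2 late in G1, differed little between groups. It was 6.38, 5.93, 7.60, 7.16 and 5.50 in the DN2-labelled arrays, 6.45, 5.88 and 6.37 in LSK-labelled ones and 5.78, 6.01, 6.12, 6.77 and 5.84 in the GMP-labelled arrays. Healthy DN2 had 6.32 and 6.57 and healthy GMP had 6.71 and 6.98. Its highest and its lowest value were both in DN2-labelled arrays, and its group means spanned 0.75 against a pooled within-group SD of 0.57. No Ccne1 difference was called, the widest between 2 groups being −0.75 ± 0.44 in the GMP-labelled leukemias against healthy GMP (adjusted p = 0.252). The leukemia change in DN2 minus that in GMP was 0.81 ± 0.63 (adjusted p = 0.453).

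Among the inhibitors, Cdkn1b and Cdkn2c were higher in the DN2-labelled and LSK-labelled than in the GMP-labelled leukemias. Against the GMP-labelled leukemias the NK-cell markers ran the same way, with 4 of 4 higher in the DN2-labelled and 3 of 4 in the LSK-labelled leukemias (medians 7.67 and 3.03). Between the DN2-labelled and LSK-labelled leukemias they did not. There 2 of 4 NK-cell markers were called higher in the DN2-labelled arrays (median 2.50). Cdkn1b (−0.29 ± 0.73, limma, adjusted p = 0.777) and Cdkn2c (−0.36 ± 0.49, adjusted p = 0.581) were not called. The part of the NK-cell markers in these values was not tested. Cdkn1b was 10.37, 10.73, 10.00, 10.02 and 10.83 in the DN2-labelled arrays, 9.94, 11.21 and 10.88 in LSK-labelled ones and 9.14, 5.81, 8.97, 6.08 and 9.39 in the GMP-labelled arrays. Healthy DN2 had 9.28 and 9.13 and healthy GMP had 8.54 and 7.67. GMP-labelled arrays 2 and 4 lay under every other array, and the other GMP-labelled arrays lay near the healthy DN2 values.

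Cdkn1b rose by 2.51 ± 0.64 in the DN2-labelled over the GMP-labelled leukemias (adjusted p = 0.00556) and by 2.80 ± 0.73 in the LSK-labelled over the GMP-labelled leukemias (adjusted p = 0.0114), both without overlap. Without LSK-labelled array 2 the second was 2.53 and not called (adjusted p = 0.0607), nor was it with only those 2 groups in the fit (adjusted p = 0.0838). Against healthy cells it differed by 1.18 ± 0.84 for DN2 (adjusted p = 0.366), without overlap, and by −0.23 ± 0.84 for GMP (adjusted p = 0.885). Its dimmer probe set gave means of 5.78 ± 0.39 in the DN2-labelled, 5.22 ± 0.94 in the LSK-labelled and 4.21 ± 0.34 in the GMP-labelled leukemias (SD) and kept both calls.

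Cdkn2c was 7.70, 7.30, 8.30, 6.07 and 7.19 in the DN2-labelled arrays, 7.22, 7.45 and 8.33 in LSK-labelled ones and 4.99, 5.16, 6.95, 5.64 and 5.67 in the GMP-labelled arrays. Healthy DN2 had 7.42 and 6.57 and healthy GMP had 6.40 and 6.91. GMP-labelled arrays 1, 2, 4 and 5 lay under every other array, while array 3 lay within the healthy range. Cdkn2c rose by 1.63 ± 0.42 in the DN2-labelled over the GMP-labelled leukemias (adjusted p = 0.0063), with overlap, and by 1.99 ± 0.49 in the LSK-labelled over the GMP-labelled leukemias (adjusted p = 0.00781), without overlap. The first was 1.17 and not called without DN2-labelled arrays 1 and 3 (adjusted p = 0.0578), and 1.04 ± 0.50 and not called with array weights (adjusted p = 0.0974). Neither leukemia was called against its healthy cells, at 0.32 ± 0.56 for DN2 (adjusted p = 0.751) and −0.97 ± 0.56 for GMP (adjusted p = 0.233).

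Cdkn2d was highest in LSK-labelled arrays 2 and 3, which also had lower Mycn and a higher mean of neutrophil markers than array 1. It was 9.32, 8.93, 9.30, 9.36 and 9.43 in the DN2-labelled arrays, 9.32, 10.84 and 11.18 in LSK-labelled ones and 9.26, 9.26, 9.93, 8.52 and 9.18 in the GMP-labelled arrays. Healthy DN2 had 8.60 and 8.64 and healthy GMP had 8.16 and 8.03. LSK-labelled array 1 lay among the DN2-labelled arrays, and all leukemias but GMP-labelled array 4 lay above all healthy arrays.

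Cdkn2d fell by 1.18 ± 0.35 in the DN2-labelled against the LSK-labelled leukemias (adjusted p = 0.0124) and rose by 1.22 ± 0.35 in the LSK-labelled over the GMP-labelled leukemias (adjusted p = 0.0182). Both calls were lost without LSK-labelled array 2, at −0.98 (adjusted p = 0.0668) and 1.02 (adjusted p = 0.0994). They were lost without array 3 too, at −0.81 (adjusted p = 0.0906) and 0.85 (adjusted p = 0.114). With only those 2 groups in the fit the rise over the GMP-labelled leukemias was not called either (adjusted p = 0.109). Against healthy cells it differed by 0.65 ± 0.40 for DN2 (adjusted p = 0.287) and 1.13 ± 0.40 for GMP (adjusted p = 0.0582), each without overlap. The GMP difference was 1.31 and called without GMP-labelled array 4 (adjusted p = 0.0219).

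**Figure D4:**
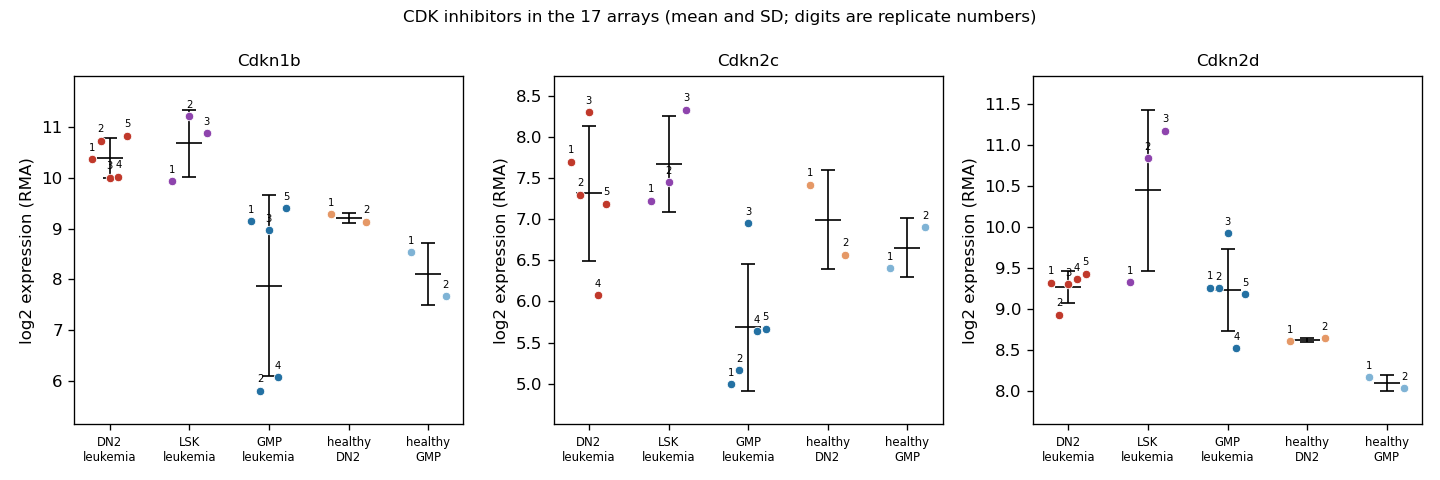
Log2 expression of Cdkn1b, Cdkn2c and Cdkn2d (main probe set of each, 1 panel per gene) in the 5 groups, with points for arrays, digits for replicate numbers, and the group mean with its SD. Cdkn1b is 5.81 and 6.08 in GMP-labelled arrays 2 and 4 and at least 9.94 in every DN2-labelled and LSK-labelled array.

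Rb1, the substrate of the D-cyclin kinases, was lower in the DN2-labelled leukemias than in the others. It was 9.08, 8.36, 8.39, 8.70 and 8.60 in the DN2-labelled arrays, 9.35, 10.38 and 10.04 in LSK-labelled ones and 9.27, 9.56, 9.51, 9.36 and 9.29 in the GMP-labelled arrays. Healthy DN2 had 8.99 and 8.91 and healthy GMP had 8.69 and 8.62. The leukemia groups did not overlap with the DN2-labelled one, and the GMP-labelled arrays lay in a narrow band above both healthy groups.

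Rb1 fell by 0.77 ± 0.18 in the DN2-labelled against the GMP-labelled leukemias (adjusted p = 0.00321) and by 1.30 ± 0.21 against the LSK-labelled leukemias (adjusted p = 1.64e-04). In the GMP-labelled leukemias it rose by 0.75 ± 0.24 over healthy GMP (adjusted p = 0.0384). That rise was not called without either healthy GMP array or without GMP-labelled array 2, 3 or 5, at 0.71 to 0.78 (adjusted p = 0.0548 to 0.222). The difference of −0.32 ± 0.24 between DN2-labelled leukemias and healthy DN2 was not called (adjusted p = 0.384), nor was the difference between the leukemia changes, −1.07 ± 0.34 (adjusted p = 0.051), which passed at −1.18 without DN2-labelled array 1 (adjusted p = 0.0252) and at −1.14 without arrays 1 and 3 (adjusted p = 0.0399). The 0.53 ± 0.21 between LSK-labelled and GMP-labelled leukemias (adjusted p = 0.0753) was 0.81 without LSK-labelled array 1 (adjusted p = 0.00395). The second Rb1 probe set averaged 5.17 over the LSK-labelled leukemias, with array 2 at 6.66, and lay near background in the other groups, with means of 3.72 to 3.83. It gave −1.34 ± 0.44 in the DN2-labelled against the LSK-labelled leukemias (adjusted p = 0.0218) and 0.11 ± 0.38 between DN2-labelled and GMP-labelled leukemias (adjusted p = 0.862). With both Rb1 probe sets averaged, −0.33 ± 0.26 against the GMP-labelled leukemias (adjusted p = 0.337) and 0.35 ± 0.34 over healthy GMP (adjusted p = 0.497) were not called.

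Counts over the members are read against the share of all genes. In the DN2-labelled leukemias against healthy DN2, 2 of 10 fell and 0 rose, where 23.2% of all genes tested were called, 9.49% higher and 13.7% lower. The groups did not overlap at 5 of the 10, against 50.0% of all genes. In the GMP-labelled leukemias against healthy GMP, 2 fell and 1 rose, where 21.2% were called, 8.09% higher and 13.1% lower. There 7 of the 10 did not overlap, against 43.5%.

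Between the leukemias more genes were called in general. In the DN2-labelled against the GMP-labelled leukemias 3 rose and 2 fell, where 39.8% were called, 21.0% higher and 18.8% lower, and 4 did not overlap, against 28.1%. In the DN2-labelled against the LSK-labelled leukemias 3 rose and 3 fell, where 47.4% were called, 28.4% higher and 19.1% lower, and 5 did not overlap, against 42.0%. In the LSK-labelled against the GMP-labelled leukemias 3 rose and 2 fell, where 26.7% were called, 10.3% higher and 16.5% lower, and 4 did not overlap, against 23.9%. These comparisons share arrays, so their counts are not independent.

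Between healthy DN2 and healthy GMP limma called 0 of the 10 genes, and 0 had an unadjusted p under 0.05, where 11.2% of all genes tested were called, 5.78% higher and 5.40% lower. Values did not overlap at 8 of the 10, against 76.5% of all genes. The widest difference was 1.10 ± 1.01 at Cdkn1b (adjusted p = 0.59), and Ccnd3 differed by 1.04 ± 0.52 (adjusted p = 0.25). With only those 4 arrays in the fit, 4 of the 10 were called, where 5326 of the 11625 genes tested were called. With array weights 4 of the 10 were called as well, beside 5439 of all genes.

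**Figure D5:**
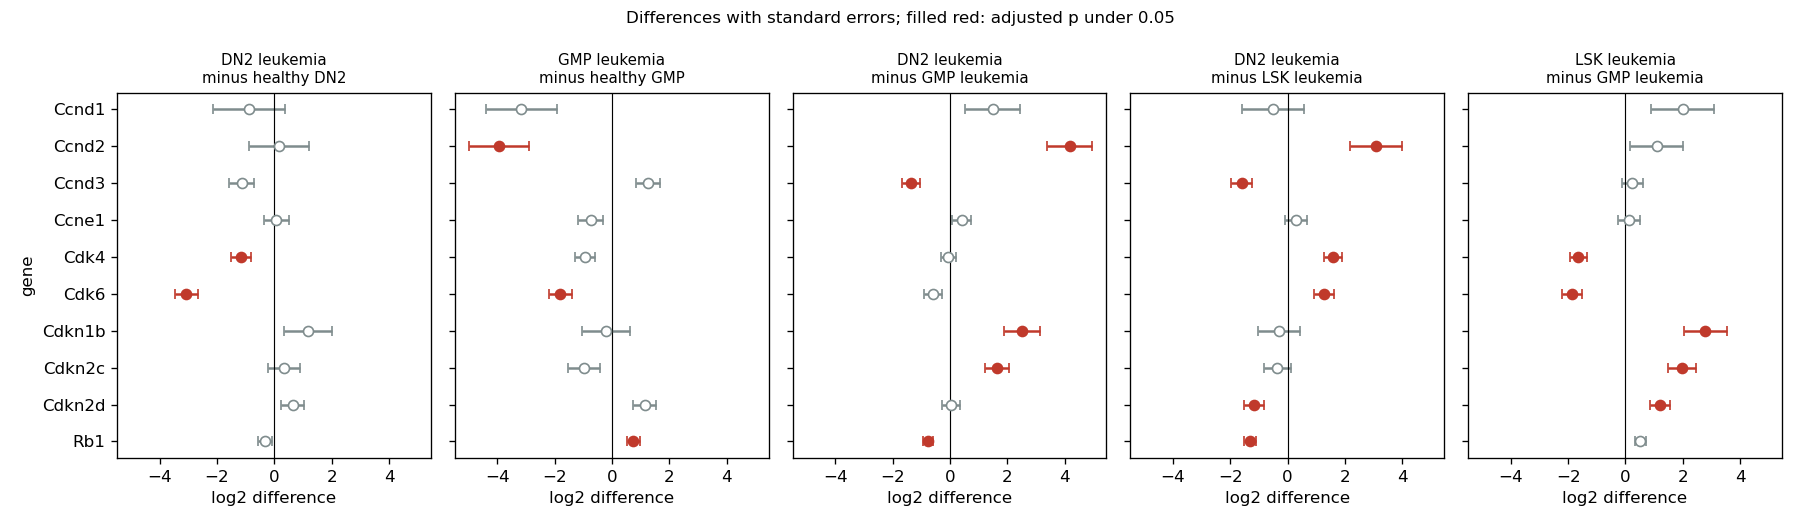
Log2 differences of the 10 genes with their SE in 5 comparisons (1 panel each, horizontal axis the log2 difference, positive when higher in the group named at the top of the panel), with filled red points for adjusted p under 0.05. Ccnd2 has the widest called differences, 4.18 over the GMP-labelled leukemias in the DN2-labelled ones and −3.95 in the GMP-labelled leukemias against healthy GMP.

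Members also varied together within 2 of the leukemia groups. GMP-labelled arrays 2 and 4 had Cdk6 at 10.77 and 10.51, against 9.10 to 9.62 in arrays 1, 3 and 5. They had Ccnd2 at 8.95 and 8.94, against 3.71 to 5.80 in those arrays. Their Cdkn1b, at 5.81 and 6.08 against 8.97 to 9.39, and Ccnd3, at 9.13 and 9.35 against 10.38 to 10.95, lay the other way. At the other Ccnd3 probe set they were also lower, at 6.46 and 4.75 against 7.10 to 8.87. At the dimmer Cdkn1b probe set they overlapped, at 4.10 and 3.83 against 4.54, 4.58 and 3.99 in arrays 1, 3 and 5. The mean of 3 promyelocyte markers (Mpo, Elane and Prtn3) was 12.65 and 12.77 in arrays 2 and 4, against 8.25 to 8.79 in the others, and its part in these values was not tested. In healthy GMP that mean was 13.22 and 13.26, beside Ccnd2 at 10.50 and 10.66 and Cdkn1b at 8.54 and 7.67. This split was seen in the data, so it is given without a test.

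The LSK-labelled arrays split with Mycn and Bcl2. Array 1, with Mycn at 12.82 and Bcl2 at 11.30, had Cdk4 at 8.98 and Cdk6 at 8.74, against 7.84 and 8.17 for Cdk4 and 7.52 and 7.83 for Cdk6 in arrays 2 and 3. Array 1 had the lower Ccnd1, Cdkn1b, Cdkn2d and Rb1, with Cdkn2d at 9.32 against 10.84 and 11.18. Myeloid markers split the same arrays. The mean of the 3 promyelocyte markers was 7.42 in array 1, against 10.39 and 10.76 in arrays 2 and 3. That of the 4 neutrophil markers was 12.60, against 13.79 and 13.98. That of 3 monocyte markers (Csf1r, Cd14 and Adgre1) was 9.19, against 10.73 and 9.91. The parts of Mycn, Bcl2 and cell type in these values were not tested. A single array has no spread of its own, so only sizes are given for array 1 alone. The DN2-labelled leukemias then differed from it by −0.73 at Rb1, 3.52 at Ccnd2 and −1.13 at Ccnd3. They differed by 0.93 at Cdk4, 0.55 at Cdk6 and −0.06 at Cdkn2d. Array 1 differed from the GMP-labelled leukemias by −0.99 at Cdk4, −1.14 at Cdk6, 2.06 at Cdkn1b, 1.54 at Cdkn2c and 0.10 at Cdkn2d.

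In the wider G1 pathway, a list of 22 other genes, 20 were tested. Against healthy DN2, 8 of 20 fell and 2 rose in the DN2-labelled leukemias, where 13.7% of all genes were called lower and 9.49% higher (median −0.90, against 0.01 over all genes tested). E2f8, a repressor of the E2F family, fell by 3.26 ± 0.72 (adjusted p = 0.00412), Ccne2, the second E-type cyclin, by 2.79 ± 0.61 (adjusted p = 0.00387), and the p53-induced inhibitor Cdkn1a fell by 2.58 ± 0.87 (adjusted p = 0.0438). E2f5, an E2F that works with the retinoblastoma relatives, rose by 1.44 ± 0.28 (adjusted p = 0.00171), and Rbl2, which encodes the relative p130, by 0.98 ± 0.26 (adjusted p = 0.0121).

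In the GMP-labelled leukemias against healthy GMP the same list gave 2 of 20 lower and 2 higher, near the 13.1% lower and 8.09% higher over all genes (median −0.36, against −0.12). Cdkn1a rose by 3.28 ± 0.87 (adjusted p = 0.0155) and the activator E2f2 by 2.79 ± 0.62 (adjusted p = 0.0061). The relative Rbl1 fell by 1.39 ± 0.47 (adjusted p = 0.049) and E2f6 by 1.12 ± 0.35 (adjusted p = 0.0358). Between these leukemia changes 4 of 20 were lower and 1 higher, where 6.28% of all genes were called lower and 6.39% higher. Cdkn1a was at −5.87 ± 1.23 (adjusted p = 0.00504), E2f2 at −4.03 ± 0.88 (adjusted p = 0.00696), E2f3 at −2.46 ± 0.46 (adjusted p = 0.00214) and E2f5 at 2.07 ± 0.40 (adjusted p = 0.00279).

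Among the leukemias, 9 of 20 fell and 3 rose in the DN2-labelled against the GMP-labelled arrays, where 18.8% of all genes were called lower and 21.0% higher (median −0.66, against 0.03 over all genes). Cdkn1a fell by 4.51 ± 0.66, with 7.77, 5.71, 7.02, 5.38 and 7.51 in the DN2-labelled arrays against 10.46 to 12.00 in the GMP-labelled ones. E2f8 fell by 3.21 ± 0.54 and E2f2 by 2.38 ± 0.47, while E2f5 rose by 2.78 ± 0.21 and Tfdp2, a partner of E2F proteins, by 1.30 ± 0.30. In the DN2-labelled against the LSK-labelled arrays 6 rose and 6 fell, beside 28.4% and 19.1% of all genes. E2f8 fell by 3.61 ± 0.63, Cdkn1a by 3.13 ± 0.76 and E2f2 by 2.84 ± 0.55, and E2f5 rose by 2.87 ± 0.24 and Tfdp2 by 2.22 ± 0.34. In the LSK-labelled against the GMP-labelled arrays 6 fell and 0 rose, beside 16.5% and 10.3% of all genes, with E2f3 lower by 1.25 ± 0.28, E2f6 by 1.10 ± 0.31 and Mnat1, a subunit of the kinase that activates Cdks, by 1.05 ± 0.25. Its 2 partner subunits, named after their values were seen, were at −0.91 ± 0.23 for Ccnh and −0.85 ± 0.17 for Cdk7, both called.

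Of 13 E2F target genes tested, most fell in the DN2-labelled leukemias. Against healthy DN2, 12 of 13 fell and 0 rose there, where 13.7% of all genes fell (median −2.32, against 0.01 over all genes), among them the replication licensing factor Cdc6 by 3.32 ± 0.80 and the ribonucleotide reductase subunit Rrm2 by 3.02 ± 0.73. Against healthy GMP, 6 of 13 fell and 7 were not called in the GMP-labelled leukemias, where 13.1% of all genes fell (median −1.13, against −0.12 over all genes), among them the helicase subunit Mcm3 by 1.93 ± 0.46. The mean of the 13 was 8.33, 7.78, 9.37, 8.57 and 7.24 in the DN2-labelled arrays, 8.92, 8.30 and 8.69 in LSK-labelled ones and 8.39, 9.19, 9.02, 10.04 and 8.87 in the GMP-labelled arrays. It was 10.36 and 10.34 in healthy DN2 and 10.31 and 10.42 in healthy GMP. Every leukemia lay under every healthy array. The DN2-labelled array with the highest mean, array 3, also had the highest Cdk4 (10.44), Ccne1 (7.60) and Ccnd2 (11.28) of its group. It had the highest value of the inhibitor Cdkn2c too (8.30), while Cdk6 was highest in array 4 (9.58, against 9.50 in array 3). The part of the E2F target mean in the kinase differences was not tested.

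A list of genes of p27 turnover and transcription also held Fbxw7, and its 8 genes tested were called in both directions. In the DN2-labelled leukemias against healthy DN2, 4 of 8 fell and 0 rose, beside 13.7% and 9.49% of all genes, among them Skp2, the adaptor that marks p27 for degradation, by 2.88 ± 0.71 (adjusted p = 0.00865), and its cofactor Cks1b by 1.25 ± 0.37 (adjusted p = 0.0257). In the DN2-labelled against the GMP-labelled leukemias Skp2 fell by 1.75 ± 0.54 (adjusted p = 0.0176). Cdkn1b RNA was higher there, but Skp2 acts on the p27 protein, which was not measured, and a link was not tested. There Fbxw7, the adaptor that marks cyclin E for degradation, rose by 1.23 ± 0.21 (adjusted p = 3.19e-04). In the GMP-labelled leukemias against healthy GMP 1 of 8 rose and 1 fell, near the 8.09% and 13.1% of all genes. Foxo3, a transcription factor known to act on Cdkn1b, rose by 1.07 ± 0.30 (adjusted p = 0.0223), and Skp1 fell by 0.68 ± 0.23 (adjusted p = 0.0452). Foxo3 fell by 1.01 ± 0.30 in the DN2-labelled leukemias (adjusted p = 0.0253), and the difference between the leukemia changes was −2.08 ± 0.43 (adjusted p = 0.00461). In the LSK-labelled against the GMP-labelled leukemias 1 of 8 rose and 1 fell, near the 10.3% and 16.5% of all genes.

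Genes with the most similar pattern were sought by the root mean square difference between centred values over the 17 arrays, where 0 is an identical pattern. Cdk4 was closest to Dut, which encodes a dUTPase, at 0.23, and to Pfas, an enzyme of purine synthesis, at 0.23, against a spread of 0.93 of Cdk4 itself. Rb1 was closest to Stard3 at 0.25 and Eif3f at 0.27, against its own 0.54. Ccnd3 was closest to Stat3, a cytokine-activated transcription factor, at 0.32 and Svil at 0.34, against 0.82. Cdkn2d was closest to Il17ra, a receptor for interleukin 17, and Arhgap9, both at 0.35, against 0.80. Cdk6 was closest to Zc3hav1l at 0.42 and Cul7 at 0.50, against 1.41. Ccnd2 was closest to Abi2 and to Nkg7, a gene of cytotoxic granules, both at 0.75, against 2.20. Cdkn1b was closest to Hlcs and Helz2, both at 0.68, against 1.51. Cdkn2c was closest to Slc39a4 at 0.59 and Mical1 at 0.60, against 0.97. Ccnd1 had none close, with Bmyc at 1.24 and Plekha8 at 1.25 against its own 1.74, and Ccne1 likewise, with Mvb12a and Polr2j both at 0.35 against 0.53.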

How the data were processed

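RNA (300 ng per array) from 17 samples was measured on Affymetrix arrays. The deposited values are log2 expression per probe set. RMA and the affy package are named in the submitters' processing notes, with versions not given in the sources used here, and whether all arrays were normalized together is not given either. Array medians were 3.80 to 3.86, and 0 pairs of arrays held identical values.

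The table holds 45141 probe sets, 104 of them controls. The platform annotation gave 28898 probe sets 1 gene symbol and 551 several, which were left out, and the rest were unnamed here. The probe set of highest mean stood for each of 17097 genes, and 11625 genes whose highest group mean exceeded 3.83 were tested.

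One limma fit (3.58.1, R 4.3.3) with a mean per group gave 7 comparisons, two-sided, with Benjamini-Hochberg adjustment over all genes tested. It was tested on simulated data. All 10 members are named. From the lists, up to 3 called genes of largest rise and fall per comparison were eligible, and the 2 genes of most similar pattern per member are given. Members and lists were chosen with earlier results of these data known. Alternatives were the filter, the probe set, quantile normalization, the variance model, array weights, the arrays in the fit, a replicate block and leaving out arrays. Replicate numbers were not used to pair arrays in the main fit.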

Additional observations from a re-analysis of the deposited data

Results flagged for a closer look

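In the DN2-labelled leukemias, array 2 lay far from the other arrays of its group at 3 of the 10 genes. It had Ccnd1 at 9.50, against 3.30 to 5.05 in the others. It had Ccnd3 at 8.27, against 8.83 to 8.99, and Cdkn2d at 8.93, against 9.30 to 9.43. In all, 20 groups of 5 arrays were examined by Dixon's test, which by chance marks about 1 in 20, and 3 were marked. The leukemia change of Ccnd3 in DN2 minus that in GMP was −2.39 (limma, adjusted p = 0.0178), a difference between the 2 cell types that was −0.06 at the gene's other probe set (adjusted p = 0.977).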

How the results depend on the processing

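Groups of 2 healthy arrays limit every comparison with healthy cells, and probe sets near background compress differences. Counts of called genes and members stayed within 1.5 times with no filter on dim genes, with the trend and robust variance model and with the replicate block. Causes of the shifts below were not tested.

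With the mean of all probe sets, 3 members were called in DN2-labelled against GMP-labelled leukemias and 0 in the difference of leukemia changes. Quantile normalization gave 5 members in GMP-labelled leukemias against healthy GMP and 2 in the difference of changes. Array weights gave 5885 genes and 6 members for DN2-labelled leukemias against healthy DN2, 6054 and 8 for GMP-labelled leukemias against healthy GMP, 8 members for LSK-labelled against GMP-labelled leukemias, 5439 genes and 4 members for healthy DN2 against healthy GMP, and 5243 and 5 for the difference of changes. The main counts of genes were 2695, 2463, 3108, 1300 and 1473. Wherever this paragraph gives members alone, the count of all genes called stayed within 1.5 times its main value. With only the groups compared, 5 members were called for DN2-labelled leukemias against healthy DN2, 1659 genes and 3 members for LSK-labelled against GMP-labelled leukemias, 5326 and 4 for the healthy cells and 2 members for the difference of changes. Chosen after seeing the data, leaving out DN2-labelled arrays 1 and 3 gave 2 members in the difference of changes. Leaving out LSK-labelled arrays 2 and 3 gave 3172 genes and 1 member against the DN2-labelled leukemias and 1374 genes and 0 members against the GMP-labelled ones.

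Leaving out 1 replicate at a time gave 1236 to 2676 genes and 1 to 3 members for DN2-labelled leukemias against healthy DN2, and 848 to 3342 genes and 0 to 6 members for GMP-labelled leukemias against healthy GMP. It gave 4149 to 4622 genes and 5 members for DN2-labelled against GMP-labelled leukemias, 4576 to 5614 and 4 to 7 for DN2-labelled against LSK-labelled, and 1889 to 3716 and 3 to 6 for LSK-labelled against GMP-labelled. It gave 602 to 785 genes and 0 members for the healthy cells and 782 to 1749 genes and 0 to 2 members for the difference of changes.

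Signs turned only for differences that the fit did not call, apart from Ccnd3 and Rb1. With all probe sets averaged, Ccnd3 was 0.50 in DN2-labelled leukemias against healthy DN2, 0.040 against LSK-labelled leukemias and −0.10 in LSK-labelled against GMP-labelled ones, Ccnd2 was −0.16 against healthy DN2 and Cdkn1b 0.13 in DN2-labelled against LSK-labelled leukemias. At single other probe sets Ccnd3 was 2.14, 1.23 and 1.68 in DN2-labelled leukemias against healthy DN2, GMP-labelled and LSK-labelled leukemias, and −0.46 in LSK-labelled against GMP-labelled ones. Rb1 was 0.10 against healthy DN2, 0.11 in DN2-labelled against GMP-labelled leukemias, −0.048 against healthy GMP, −0.042 between the healthy cells and 0.15 in the difference of changes. Ccnd2 was −0.13, −1.06 and −0.33 against healthy DN2 and −0.33 in LSK-labelled against GMP-labelled leukemias, Ccnd1 was 0.39 against healthy DN2 and Cdkn1b 0.56 in DN2-labelled against LSK-labelled leukemias. Array weights gave Cdkn1b 0.64 against healthy GMP, Cdk4 0.18 and Cdkn2d −0.18 in DN2-labelled against GMP-labelled leukemias, Ccnd3 −0.086 in LSK-labelled against GMP-labelled ones and Cdk4 0.031 in the difference of changes. Without DN2-labelled arrays 1 and 3, Ccne1 was −0.035 against LSK-labelled leukemias and −0.25 against healthy DN2, where Cdkn2c was −0.14 and Ccnd2 −0.022. Without LSK-labelled arrays 2 and 3, Ccnd1 was 1.08, Cdkn1b 0.45 and Cdkn2c 0.088 in DN2-labelled against LSK-labelled leukemias, and Ccnd3 −0.22 and Rb1 −0.046 in LSK-labelled against GMP-labelled ones.

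Leaving out 1 replicate turned Ccne1 (−0.20 to 0.32) and Cdkn2c (−0.11 to 0.75) against healthy DN2 and Cdkn1b (−0.66 to 0.29) against healthy GMP. It turned Cdk4 (−0.19 to 0.12) and Cdkn2d (−0.14 to 0.21) in DN2-labelled against GMP-labelled leukemias, Ccnd3 (−0.0051 to 0.48) in LSK-labelled against GMP-labelled ones, and Ccnd2 (−0.054 to 0.20) and Cdkn2c (−0.088 to 0.76) between the healthy cells.

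After centring within groups, 6 of 25 same-numbered pairs of arrays correlated over 0.1, from −0.30 to 0.25. Differently numbered pairs were not compared, so these values cannot decide whether the numbers pair arrays. With the number as a replicate block, 2 calls were lost, Cdk4 against healthy DN2 (adjusted p = 0.0578) and Rb1 against healthy GMP (adjusted p = 0.0945), and Ccnd3 against healthy DN2 was gained (adjusted p = 0.0321). Under the block Ccnd1 turned to 0.032 in DN2-labelled against LSK-labelled leukemias and 0.085 against healthy DN2, and Ccne1 to −0.15 against healthy DN2.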
